A study of Drosophila melanogaster with 2 samples.

Results

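The X chromosome of Drosophila melanogaster carried 976 of the 5355 peaks of the transcription factor DREF in the conservative list made from both replicates. They were chosen by position alone, as every peak of that list on the assembled X, and no peak was dropped for low signal. The 6 chromosome arms held 5292 peaks in all, and the 4316 peaks on the 5 autosomal arms are the comparison. The main result is that 40.2% of X-linked protein-coding genes had a DREF summit at a start, against 26.9% to 31.2% on the 4 large autosomal arms.

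The peaks come from ChIP-seq, the sequencing of DNA that is pulled down with a protein, of whole embryos aged 0 to 24 hours, in 2 biological replicates of 1 group. Per the labels, the strain was Dref-GFP, an insertion that expresses a Dref-eGFP fusion protein, and the fusion was pulled down with an antibody against GFP. All values therefore describe the tagged protein, pooled over all cells and stages of embryogenesis. Sonicated fragments were 200 to 800 bp long, the labels do not name the promoter that drives the fusion, and no untagged, mutant or input samples were analysed here. No record of embryo sex was kept, per the labels. In a mixed population the X is present in fewer copies per embryo than an autosome, and copy number and binding per copy cannot be told apart in these lists.

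DREF, short for DNA replication-related element factor, is a zinc finger protein that binds the palindrome TATCGATA, the DNA replication-related element (DRE), which lies just upstream of many genes for DNA replication, growth and basic cell functions. Fly males have a single X, whose genes are transcribed at a raised rate through the dosage compensation complex, and the number of X chromosomes is read early in the embryo to set sex through Sxl.

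The following stretches of the X show what lies under its summits. They show peaks with 2 or 3 DREs, the strongest peak, the strongest peak far from any gene start, another far peak with 2 DREs (bif), a strong peak with several near matches alone (HERC2) and a published DREF target (Myb). Each is the plus strand of the Release 6 assembly (RefSeq), which is dm6, written 5′ to 3′, with exact DREs in capitals, or, where a stretch has none, copies with 1 mismatch, called near matches here. Stretches reach at most 100 bases to either side of the summit and stop where an annotated untranslated region begins. They come from chrX:8517153-8517353 (Nrg), chrX:19597634-19597834 (RpS10b), chrX:9089332-9089512 (CCT2), chrX:6741171-6741371 (the distal peak), chrX:11681515-11681715 (an intron of bif), chrX:2270762-2270893 (CG2924), chrX:20394263-20394394 (HERC2) and chrX:15857824-15857965 (Myb).
Nrg: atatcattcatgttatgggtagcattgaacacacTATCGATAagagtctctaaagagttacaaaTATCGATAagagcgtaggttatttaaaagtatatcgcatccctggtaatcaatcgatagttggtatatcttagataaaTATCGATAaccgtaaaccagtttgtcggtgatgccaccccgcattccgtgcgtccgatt
RpS10b: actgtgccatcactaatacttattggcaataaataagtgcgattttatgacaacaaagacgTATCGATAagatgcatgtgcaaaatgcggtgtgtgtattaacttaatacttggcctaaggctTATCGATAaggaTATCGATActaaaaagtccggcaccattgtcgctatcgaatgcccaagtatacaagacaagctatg
CCT2: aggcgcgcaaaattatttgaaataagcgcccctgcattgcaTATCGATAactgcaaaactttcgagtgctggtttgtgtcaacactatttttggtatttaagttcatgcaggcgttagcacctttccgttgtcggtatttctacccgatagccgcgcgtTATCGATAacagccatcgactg
Distal peak: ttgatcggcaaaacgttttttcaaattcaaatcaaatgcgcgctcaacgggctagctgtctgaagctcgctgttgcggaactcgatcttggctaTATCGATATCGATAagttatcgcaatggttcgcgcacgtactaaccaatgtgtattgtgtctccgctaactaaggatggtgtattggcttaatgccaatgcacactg
bif intron: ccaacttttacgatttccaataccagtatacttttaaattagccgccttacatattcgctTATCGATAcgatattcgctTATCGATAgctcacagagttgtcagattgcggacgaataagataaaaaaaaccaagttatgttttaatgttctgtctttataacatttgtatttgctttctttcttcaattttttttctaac
CG2924: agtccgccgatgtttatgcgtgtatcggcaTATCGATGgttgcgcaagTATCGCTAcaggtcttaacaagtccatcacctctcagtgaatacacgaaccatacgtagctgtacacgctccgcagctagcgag
HERC2: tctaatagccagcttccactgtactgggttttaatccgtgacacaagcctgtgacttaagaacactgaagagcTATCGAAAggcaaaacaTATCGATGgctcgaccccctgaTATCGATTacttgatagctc
Myb: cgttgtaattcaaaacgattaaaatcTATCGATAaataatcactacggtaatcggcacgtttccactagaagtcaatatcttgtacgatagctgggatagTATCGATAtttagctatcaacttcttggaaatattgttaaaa

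At Nrg, which encodes the cell adhesion protein Neuroglian, 3 exact DREs lie within 100 bases of the summit, and a further site differs from the DRE by T1A, counted from 1 at the 5′ end of TATCGATA. In the distal peak a pair of DREs overlap, so that they share the end bases TA. The strongest X peak, at CG2924, has no exact DRE, and its near matches read T1C and T3G on the minus strand. HERC2, a ubiquitin ligase gene, likewise has no exact DRE, and the near matches in its stretch read A2T, T1C and T1A.

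In the whole conservative list the X lay at the upper end of the large autosomal arms in peak density, and its median distance between summits was shorter. It held 18.4% of the arm peaks on 17.6% of the arm length, or 41.5 peaks per Mb against 39.1 on the autosomes and 35.9 to 41.5 on the large autosomal arms. In the list of replicate 1 the density was 35.0 per Mb on the X and 26.8 on the autosomes, and in that of replicate 2 it was 37.1 and 27.9. The X was thus the denser in both replicate lists, by more than in the conservative list. The median distance between neighbouring summits was 5796 bp on the X and 7824 bp on the autosomes, where it ran from 6879 to 9193 bp on the large arms. Distances under 1 kb made up 17.5% of those on the X (171 of 975) and 12.02% to 13.48% on the large autosomal arms. At the 95th percentile, though, the distance in the conservative list was longer on the X, 125772 bp against 81516 to 109989 bp on the large autosomal arms. That did not hold in the replicate lists. There the X had 138191 bp against 125060 to 176272 bp in replicate 1, and 135030 bp against 127774 to 185252 bp in replicate 2. In each replicate's own list the X median was also the shorter, at 6898 bp against 8995 bp on the autosomes in replicate 1 and 6028 bp against 8335 bp in replicate 2. With peaks above a q-value of 0.05 left out, it was 6800 bp on the X and 8300 bp on the autosomes, but one large arm came close, at 6856 bp. When summits no more than 2000 bp apart were joined, 468 of the X summits fell into 207 groups of 2 or more, and the largest group held 5.

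Peaks on the X were unevenly spread, and crowded where genes are crowded. Over the 23 full segments of 1 Mb, the number of peaks ran from 9 to 73 with a median of 41. The poorest segment, with 46 protein-coding genes, was the last full one towards the base of the arm, and the richest had 140 genes. Across these segments the counts of peaks and genes had a Pearson r of 0.888, given as a description, since segments of 1 chromosome share both libraries. The 3 closest pairs of summits lay 199 bp apart at CG10555, 200 bp apart at ND-75 and 200 bp apart at Tis11. The longest stretches without a summit were 505771 bp near CG40813, 467266 bp near CG17598, both towards the base of the arm, and 434025 bp between Usp7 and Rab40 in mid-arm. These stretches enclosed 21, 12 and 21 protein-coding genes.

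**Figure D1:**
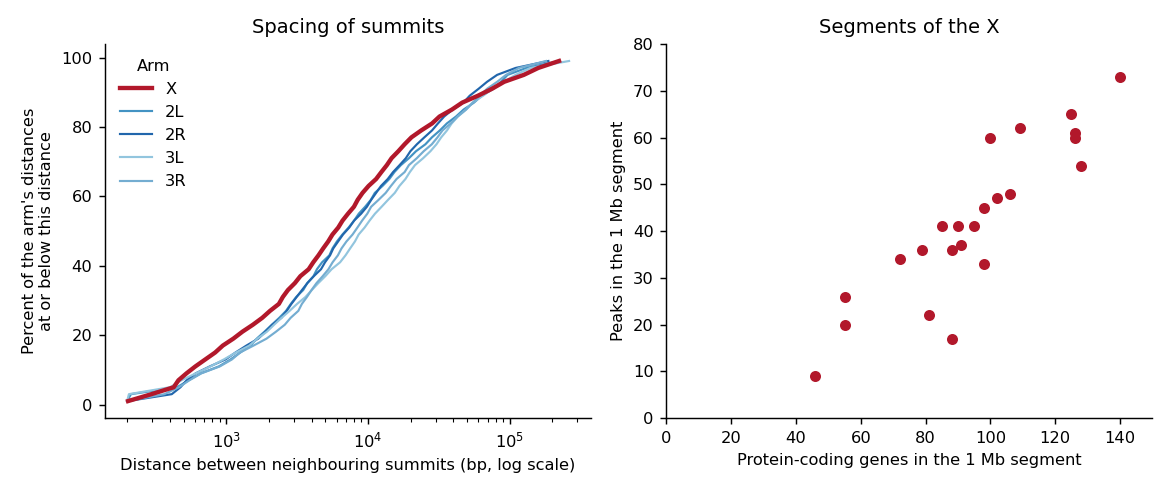
Left, percent of neighbouring summit distances at or below a given distance (bp, log scale) on the X and the 4 large autosomal arms, conservative list. Right, peaks against protein-coding genes in each of the 23 full 1 Mb segments of the X, 1 point per segment. The X curve lies to the left of the others around its median of 5796 bp, and segments with more genes hold more peaks.

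The authors gave each peak a q-value, and the X list was short of peaks with poor q-values. Of the X peaks, 86.9% (848 of 976) had a q-value of 0.05 or less, against 66.9% on the autosomes, 64.4% to 71.3% on the large autosomal arms and 70.6% over all 6 arms. The difference was 19.9 percentage points, with a 95% Newcombe interval of 17.3 to 22.4. Peaks above a q-value of 0.05 numbered 5.44 per Mb on the X and 11.9 to 13.8 per Mb on the large autosomal arms, while peaks at or below it numbered 36.0 and 23.1 to 29.6 per Mb. Arms and peaks are not replicates of a condition, so no p-value is given, and all intervals treat neighbouring peaks or genes as independent and cover counting error only.

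What the peaks with poor q-values looked like also differed. On the X, 49.2% of these 128 peaks were at gene starts, against 22.5% of 1427 on the autosomes. Their summits were in coding sequence for 7.81% on the X and 33.1% on the autosomes, and the median GC content within 100 bp was 44.3% on the X and 53.2% on the autosomes. The autosomal arms thus held many low-signal peaks in coding sequence, of which the X had few. Because these peaks change every share taken over a whole arm, the main shares below are also given for peaks with a q-value of 0.05 or less and in each replicate's own list. Values given once are for the whole conservative list.

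Signal, the authors' value of peak strength, had a higher median on the X in the whole list, and a lower one over all peaks with a q-value of 0.05 or less. The X median was 600 and the autosomal median 245 in the conservative list, a ratio of 2.45. Among peaks with a q-value of 0.05 or less the medians were 768 on the X and 861 on the autosomes, where the large arms ran from 830 to 904, and the ratio was 0.892. In the thresholded list of replicate 1 the medians were 313 on the X and 319.5 on the autosomes. In that of replicate 2 they were 454 and 462. Of the 100 strongest arm peaks, 17 lay on the X, and of the 1000 strongest, 190 (19.0%, 95% Wilson interval 16.7 to 21.5%). The X held 18.4% of all arm peaks but 22.7% of those with a q-value of 0.05 or less. In the replicate lists it held 19.1% of the 1000 strongest and 21.8% of all arm peaks for replicate 1, and 19.3% and 22.1% for replicate 2, above the intervals of the shares among the strongest (up to 21.7% and 21.9%). The X share was thus lower among the strongest peaks than over the list in both replicates.

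**Figure D2:**
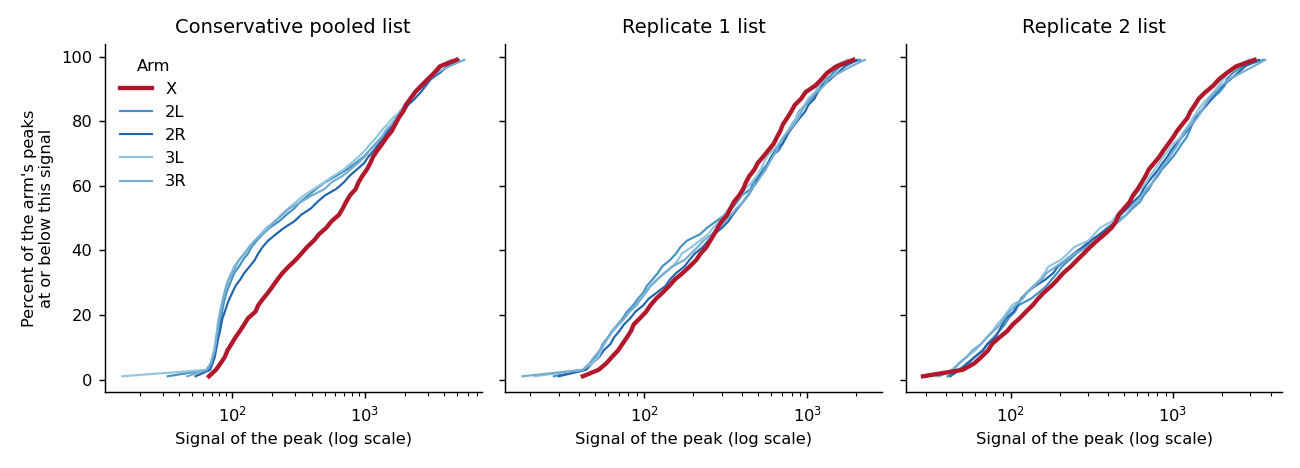
Percent of peaks at or below a given signal (log scale) on the X and the 4 large autosomal arms in the conservative list and in each replicate's thresholded list. In the conservative list the X curve stays right of the others at low signals and joins them near the top, and in the replicate lists the 5 curves run close together.

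Most X summits were at gene starts. A summit was placed at a start when it lay within 250 bp of the first base of any transcript (Ensembl, BDGP6.54). This held for 79.7% of X summits (778 of 976), for 66.5% of autosomal summits and for 69% over all arms. Among peaks with a q-value of 0.05 or less the order turned, with 84.3% on the X, 88.3% on the autosomes, 87.4% over all arms and 87.7% to 88.7% on the large autosomal arms. That difference was -3.95 percentage points (95% interval -6.78 to -1.35). In the replicate lists the shares were 84.2% on the X against 83.5% on the autosomes for replicate 1 and 85.0% against 86.0% for replicate 2, differences within their intervals (-2.22 to 3.43 and -3.75 to 1.58 points). No difference in gene-start share held in all 4 settings.

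X summits at starts mostly sat just upstream. Of the 778 such summits, 677 (87.0%) were upstream of the nearest start, against 86.3% on the autosomes. Over all summits at starts, the median position was 37 bp before the start on the X and 33 bp before it on the autosomes. Both starts of a divergent pair lay within 250 bp of the summit in 171 cases on the X. These were 17.5% of all X peaks, against 16.2% on the autosomes. The summit did not have to lie between the starts to be counted. The order turned among peaks with a q-value of 0.05 or less, at 18.99% on the X and 22.5% on the autosomes, a difference of -3.51 points (-6.46 to -0.364). By annotation, 59.9% of X summits were intergenic, 18.3% were in introns and 16.9% in a 5′ UTR, an element that covers 3.40% of the arm. Coding sequence covers 16.7% of the X but held 1.43% of X summits, against 11.5% of autosomal summits. Nearly all of that gap lay in the peaks with poor q-values, since among the others the shares were 0.472% on the X and 0.900% on the autosomes, a difference of -0.428 points (-0.934 to 0.360).

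A larger share of genes was bound on the X than on any autosomal arm. A protein-coding gene counted as bound if any of its starts had a summit within 250 bp. This was the case for 882 of 2196 X-linked genes, 40.2% (95% Wilson interval 38.1 to 42.2%), against 3390 of 11749 autosomal genes, 28.9%, and 30.6% over all arms. The large autosomal arms ran from 26.9% to 31.2%, so the X interval lay above each of them. The difference was 11.3 percentage points (9.12 to 13.5). It was 10.9 points among peaks with a q-value of 0.05 or less, 11.0 points in the list of replicate 1 (36.2% on the X, 25.2% on the autosomes) and 11.0 points in that of replicate 2 (38.0% and 27.0%). Of the 23 full segments of the X, 20 had a bound share above the autosomal share, with a range of 19.3% to 54.3%. The X has fewer protein-coding genes per Mb, 93.3 against 97.4 to 113.0 on the large autosomal arms. These shares are therefore not a measure of bound genes per length.

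More X-linked genes have a DRE at a start. An exact DRE was present within 250 bp of a start of 343 X-linked genes, 15.6% of 2196, against 9.62% of autosomal genes and 8.25% to 10.1% on the large autosomal arms, with an interval of 4.44 to 7.66 points for the difference. Where a DRE was present, 84.8% of genes were bound on the X and 86.1% on the autosomes, a difference of -1.27 points whose interval reached from -5.86 to 2.76. Without a DRE, 31.9% of X-linked genes were bound (29.8 to 34.1%), against 22.8% of autosomal genes and 21.8% to 24.4% on the large autosomal arms. Among genes with no exact DRE the bound share was thus also higher on the X, by 9.13 points (6.90 to 11.4). Whether the kinds of genes on the X or the strength of their expression in the embryo goes with this was not tested.

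**Figure D3:**
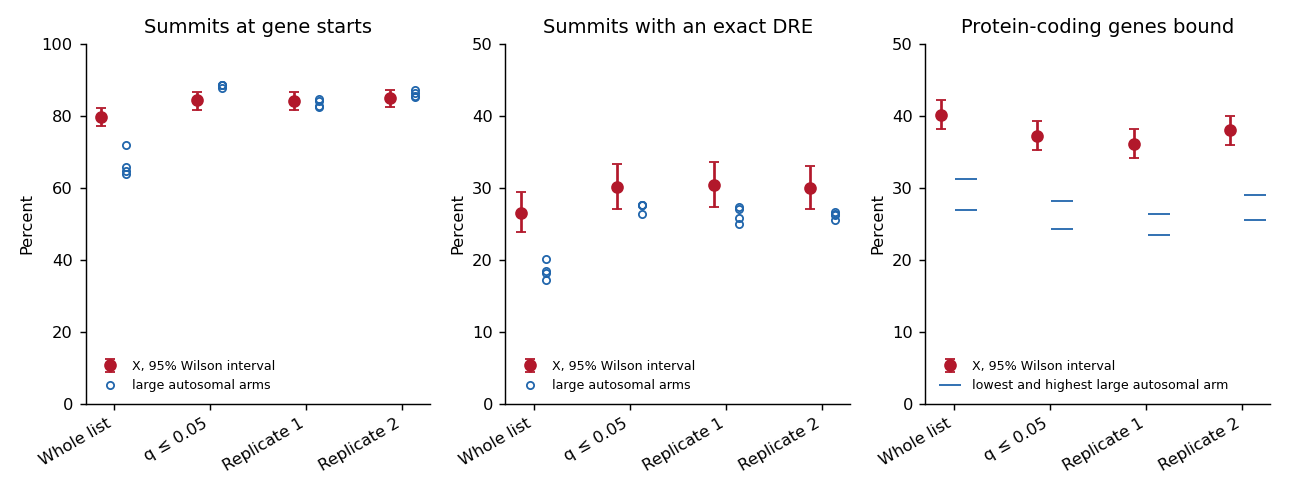
Percent of summits at gene starts, of summits with an exact DRE within 100 bp, and of protein-coding genes bound, on the X (filled points, 95% Wilson interval) and on the large autosomal arms (open points, or dashes for the lowest and highest arm), in the conservative list, its peaks with a q-value of 0.05 or less, and each replicate's list. The bound share is higher on the X in all 4 settings, 40.2% against at most 31.2% in the whole list, while the gene-start share is not.

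The DRE itself was common at X summits and rare beside them. An exact DRE lay within 100 bp of 26.5% of X summits (259 of 976), against 18.5% of autosomal summits and 20% over all arms. In windows of the same length centred 1000 bp to either side, 1.02% held one beside X summits and 0.417% beside autosomal summits. The summit share was 25.9 times that of the windows on the X and 44.4 times on the autosomes. Among peaks with a q-value of 0.05 or less these ratios were 28.3 and 71.8. A scrambled control with the same bases, ATAGCTAT, was found at 1.13% of X summits and in 0.256% of the windows beside them. Where a DRE was present within 500 bp, it was a median of 23.5 bp from the summit, on the X and on the autosomes alike.

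The X excess in DREs shrank once the poor peaks were left out. Among peaks with a q-value of 0.05 or less the share was 30.1% on the X and 27.3% on the autosomes, with 28% over all arms, a difference of 2.73 points whose interval reached from -0.692 to 6.27. In the replicate lists it was 30.3% on the X and 26.4% on the autosomes for replicate 1 (difference 0.516 to 7.54 points), and 29.98% and 26.3% for replicate 2 (0.353 to 7.17 points). With 1 mismatch allowed, 57.1% of X summits and 40.9% of autosomal summits had a match, with 43.9% over all arms. Among peaks with a q-value of 0.05 or less these were 63.1% and 58.4%, a difference of 4.70 points (0.944 to 8.36). A small X excess thus remained for the looser motif. For the same peaks it was also more common in the windows beside the summits, at 8.96% on the X and 7.18% on the autosomes.

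Per length of DNA the X has more DREs than the autosomes. It carries 923 exact copies, 39.2 per Mb, against 28.1 per Mb on the autosomes and 24.8 to 31.0 per Mb on the large arms. Of these X copies, 301 (32.6%) lay within 100 bp of a summit. For copies within 250 bp of a start, 76.1% were at a summit on the X and 75.6% on the autosomes. For all other copies, 5.94% were at a summit on the X (34 of 572, 95% interval 4.28 to 8.19%) and 3.83% on the autosomes (3.09 to 4.75%). The shares at starts differed by less than their intervals, and a DRE away from starts was seldom at a summit on the X or elsewhere.

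Copies of the DRE with 1 change were common at X summits that lacked an exact one. Over the 593 X peaks with a q-value of 0.05 or less and no exact DRE, the change T1A was found at 20.1% of summits and in 1.43% of the windows 1000 bp to either side. T1C was found at 15.9% against 0.927%, and A2T at 8.09% against 0.759%. Changes of the inner C, C4T, C4A and C4G, were found at 0.843%, 0.843% and 0.169% of summits, no more often than the 1.18%, 0.843% and 0.506% in the windows beside them. The order of the first 3 was the same on the autosomes, at 20.2%, 11.4% and 6.81%. Of the other motifs searched on both strands, the Motif 1 core GGTCACAC lay at 9.73% of X summits and in 0.512% of the windows beside them, while the TATA box, TATAAA, lay at 19.98% and 15.6%.

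Signal went with the DRE on the X. X peaks with a q-value of 0.05 or less had a median signal of 550 with no exact DRE (593 peaks), 1263 with 1 DRE (216 peaks) and 1920 with 2 or more (39 peaks). The autosomal medians were 505, 1637 and 1939. Among such peaks at gene starts, those with an exact DRE had a median of 1497 on the X and 1694 on the autosomes, where the large arms ran from 1643 to 1703. Those with a near match alone had 1159 on the X and 1431 on the autosomes, with 1375 to 1550 on the large arms. Those with neither had 296 on the X and 257 on the autosomes, with 255 to 261 on the large arms.

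The X was thus lower than each large arm where a DRE or near match was present, and higher where there was none, in these medians. Against the autosomal medians the direction was the same in both replicates. For an exact DRE the X median over the autosomal median was 0.912 in replicate 1 and 0.874 in replicate 2, for a near match alone 0.783 and 0.794, and for neither 1.16 and 1.26. Whether X copy number in these embryos goes with the lower values was not tested, since sex was not collected.

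The strongest X peaks stood at starts of genes with varied functions. The strongest, 32 bp upstream of CG2924, reached 2392 in replicate 1, 4035 in replicate 2 and 6407 in the pooled, conservative list. The next was at UQCR-14, a gene for a subunit of respiratory complex III, with 2100 in replicate 1, 3345 in replicate 2 and 5424 pooled. The third lay at the divergent starts of pod1, an actin and microtubule crosslinker gene, and C3G, a guanine nucleotide exchange factor gene. It had 1958, 3478 and 5414 in the same order. These 3 stood well above the X median of 600 in the conservative list.

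Among the next were the divergent starts of CG4119 and Sirt4, a mitochondrial sirtuin gene, at 5287 with no exact DRE. Snx27, a sorting nexin gene, had a signal of 5266 and CG14220 had 5169. Ubr1, a ubiquitin ligase gene, had 5132, and Nrg had 5106. The peak at the starts of CG14795 and inc had 5088, and inc encodes an adaptor of a ubiquitin ligase and is known for its role in sleep. HERC2 had 4902 and Ptpmeg2, a tyrosine phosphatase gene, 4840. PPP4R2r, a regulatory subunit of protein phosphatase PP4, had 4739 and FucT6, a fucosyltransferase gene, 4697. Of the 15 strongest X peaks, all were in both replicate lists, and all had an exact DRE or a near match within 100 bp.

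The 39 X peaks with 2 or more DREs had signal quartiles of 1036 and 2454. Those with 3 were at Nrg (5106), at CDK2AP1, a gene related to a Cdk2-associated protein (2400), and 297 bp upstream of RpS10b, a ribosomal protein gene (1920). Among the strongest with 2 were the distal peak and those at Nipsnap (4242), at CCT2 (3855) and at CG14194 and CG7914 (3626). CCT2 encodes a subunit of the cytosolic chaperonin.

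Only 95 X peaks (9.73%) lay over 1000 bp from any start, against 22.1% on the autosomes, but among peaks with a q-value of 0.05 or less the shares were 6.37% (54 peaks) and 4.78% (difference 1.59 points, -0.0884 to 3.58). Per Mb those 54 came to 2.29 on the X, against 1.07 to 1.46 on the large autosomal arms. The strongest, the distal peak with the overlapping DREs, reached 1814 in replicate 1, 3017 in replicate 2 and 4816 pooled, and lay 1220 bp from the start of the small nucleolar RNA gene snoRNA:Psi28S-3436b. It was the only one of these above 4000. The others of the 5 strongest were nearest to Neb-cGP (2257, in a 3′ UTR), CG4593 (1415), bif (969, in an intron, with 2 DREs) and CHES-1-like (951).

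Of 4 X-linked published DREF targets 3 were bound, beside 40.2% of all X-linked genes. Myb, a cell cycle transcription factor gene, reached 817 in replicate 1, 1429 in replicate 2 and 2234 pooled. Its summit also lay within 250 bp of a start of CG46440. SkpA, a subunit of SCF ubiquitin ligases, had 918, 1586 and 2488 in the same order. It shares this summit with Hmt4-20, whose start was the nearest, at 37 bp. Raf, the kinase of the Ras pathway, had 751, 1184 and 1921 with no exact DRE. Trf2, a TBP-related factor that acts with DREF, had no summit within 250 bp, and the nearest was 1969 bp away, at PIG-T. On the autosomes 15 of 17 published targets were bound, beside 28.9% of all autosomal genes.

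The next lists, with 3 and 6 X-linked members, were bound in 33.3% of cases each on the X, beside 40.2% of all X-linked genes. Of 3 dosage compensation genes 1 was bound, mof, the histone acetyltransferase of the complex, at 682 in replicate 1, 1037 in replicate 2 and 1709 pooled. The RNA genes of the complex were not bound: the nearest summit to roX1 was 5943 bp from its start, at yin, and that to roX2 was 1679 bp away, at nod. On the autosomes 4 of 7 members were bound. The sex determination list held 6 X-linked genes, and not all are parts of the signal itself, since Sxl responds to it. Of these, snf, a splicing factor gene, had 956 in replicate 1, 1619 in replicate 2 and 2567 pooled. Sxl, the switch gene of female development, had 120 in replicate 2 and 203 pooled, with no overlapping peak in replicate 1. The genes for the transcription factors run, sc and sisA and the ligand upd1 had no summit within 250 bp, with distances from 2985 bp (sisA) to 80537 bp (sc).

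**Figure D4:**
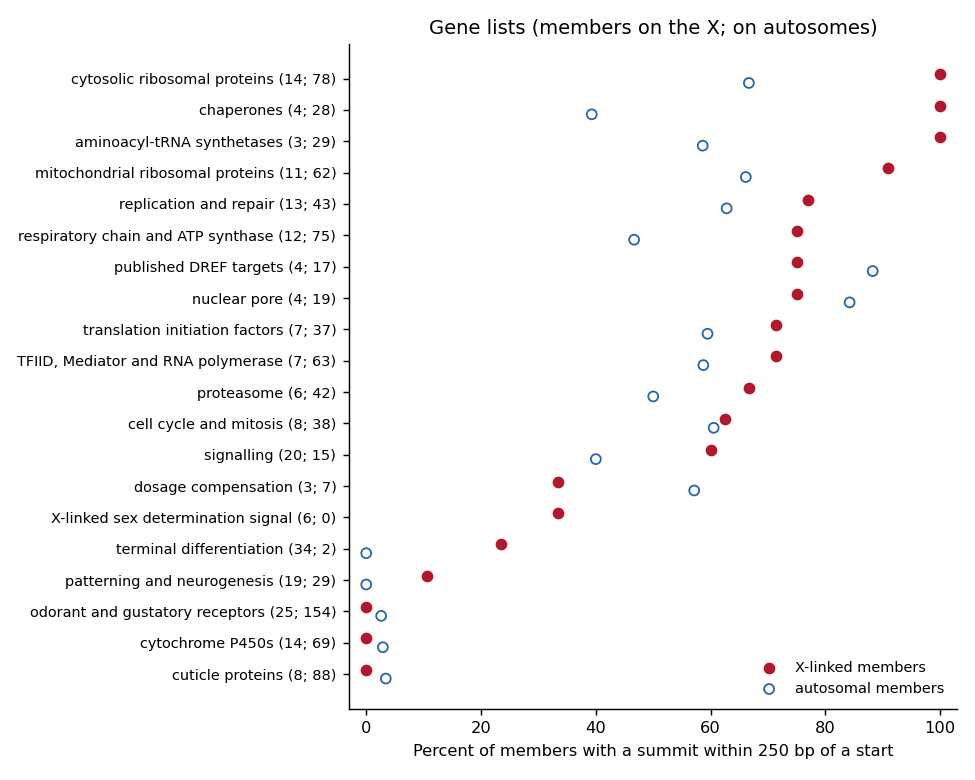
Percent of X-linked members (filled) and autosomal members (open) with a summit within 250 bp of a start, for the gene lists with 3 or more X-linked members, whose numbers stand in brackets. Lists of basic cell functions lie to the right, with all 14 X-linked cytosolic ribosomal protein genes bound, and lists of patterning genes, cuticle proteins and receptors to the left.

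Genes for protein synthesis were mostly bound. All 14 X-linked cytosolic ribosomal protein genes were bound, against 52 of 78 on the autosomes, with signals from 118.5 at RpS14a, 119 at RpL7A and 375 at RpL17 to 2490 at RpS15Aa, 2662 at RpL36 and 3666 at RpS28b. RpS14a and RpS14b are near-identical neighbours, so reads of one could have been placed on the other. Of mitochondrial ribosomal protein genes 10 of 11 were bound, against 41 of 62, led by mRpL3 (2986), mRpL16 (1271) and mRpL49 (1052), and mRpL33 was not. All 3 aminoacyl-tRNA synthetase genes, ArgRS (1137), LysRS (287) and HisRS (238), were bound, against 17 of 29. Of translation initiation factor genes 5 of 7 were bound, against 22 of 37, led by eIF2alpha (3357), eIF4H1 (728) and eIF2Bbeta (651), while eIF3g1 and eIF4E7 were not. These shares stand beside 40.2% of all X-linked and 28.9% of all autosomal genes. A summit at a listed gene can be nearer to a start of a neighbour, and among the genes named by signal this held for HisRS (nearest Bx), Rpt4 (mldr), Top3beta (wuho), shtd (CG6294), Cdk7 (snf), Klp3A (Zw10), MED18 (Gcna), Nup205 (pico), Nup153 (CG9784), mys (fs(1)h), elav (lncRNA:enrr) and RpS14a (Dhdds).

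Genes for energy and protein handling were also often bound. Of respiratory chain and ATP synthase genes 9 of 12 were bound on the X and 35 of 75 on the autosomes, led by UQCR-14, ND-B14.5A (3718) and ND-24 (1284), while ATPsyndelta, ND-20 and ND-B18 were not. All 4 chaperone genes were bound, against 11 of 28, led by CCT2, Hsp60A (2037) and Hsc70-3 (682). Of proteasome genes 4 of 6 were bound, against 21 of 42, led by Rpt6 (3311), Rpt3 (1470) and Rpt4 (223), and the unbound ones were Prosbeta2R1 and Rpn13R. Each of these shares was higher on the X, as was the share over all genes, 40.2% on the X and 28.9% on the autosomes, and few members stand behind them. Counts of bound list members include peaks with a q-value above 0.05, on the X those at ND-B16.6, Prosalpha4, mRpS30 and mus81.

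Genes of the nucleus and the cell cycle were bound in 62.5% to 76.9% of cases per list on the X, beside 40.2% of all X-linked and 28.9% of all autosomal genes. Of replication and repair genes 10 of 13 were bound, against 27 of 43, led by Top1 (3569), Caf1-180 (2343) and Top3beta (2266), the genes of a topoisomerase, a chromatin assembly factor subunit and another topoisomerase. Cdc45, Mcm3 and RPA3, genes of the replication fork, were not. Of cell cycle genes 5 of 8 were bound, against 23 of 38, led by shtd (3578), Cdk7 (2567, on the snf peak) and Klp3A (683), while CycD, fzr and Klp10A were not. Of genes for TFIID, Mediator and RNA polymerase subunits 5 of 7 were bound, against 37 of 63, led by Taf9 (3365), Polr3A (1807) and MED18 (1276), while Polr2A and Polr3I were not. Of nuclear pore genes 3 of 4 were bound, against 16 of 19: Nup205 (4109), Nup35 (2015) and Nup153 (1995), with Nup93-1 unbound.

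Signalling genes were bound in 12 of 20 cases, against 6 of 15 on the autosomes, beside the same 40.2% and 28.9% of all genes. They were led by mys, an integrin gene (3427), hop, the JAK kinase gene (3093), and dome, the receptor gene of the same pathway (2055), while Dsor1, fu and if had no summit at a start. Of the genes listed under patterning and neurogenesis 2 of 19 were bound, against 0 of 29 on the autosomes. These were elav (183) and svr (150), both below the X median of 600, while ac, acj6 and ase were not bound. Of terminal differentiation genes, a list written mainly from X-linked ones, 8 of 34 were bound, against 0 of 2, led by fs(1)K10, a gene of oocyte polarity (3693), eag, a potassium channel gene (3079), and g, an eye colour gene for a subunit of a vesicle adaptor complex (2793), and Cp36, Cp38 and Cp7Fa were not. None of 14 cytochrome P450 genes (among them Cyp18a1, Cyp28c1 and Cyp308a1), 25 odorant and gustatory receptor genes (Gr10a, Gr10b and Gr2a) and 8 cuticle protein genes (Cpr11A, Cpr11B and Cpr12A) was bound on the X. On the autosomes 2 of 69, 4 of 154 and 3 of 88 were. Of tubulin and actin genes the X holds 1, Act5C, which was not bound, against 2 of 16.

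Most X peaks were found in both replicates. Of the X peaks, 78.8% (769 of 976) overlapped a thresholded peak in both replicates by 1 bp or more, against 59.3% on the autosomes and 62.9% over all arms, and 11.0% overlapped neither, against 29.6%. Among peaks with a q-value of 0.05 or less these first shares were 89.5% and 87.4%, a difference of 2.10 points (-0.422 to 4.37). The excess of the X in the whole list was thus mostly absent from its better peaks. The strongest X peaks missing from a replicate list were at Ppt1 and Ogg1 (signal 342, absent from replicate 1), at CG12576 and Cp110 (283, absent from replicate 2) and at TRAM (239, absent from replicate 1).

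Signals were higher in replicate 2 at most X peaks. For 918 X peaks both replicates had a summit within 50 bp of the pooled one, and the median of replicate 2 over replicate 1 was 1.57 (quartiles 1.37 and 1.72), against 1.48 on the autosomes. Among all X peaks with a q-value of 0.05 or less the median was 1.59, and on the autosomes 1.58. The deposited signals are not described as scaled for depth, so this ratio is a property of the lists. Among X peaks with a q-value above 0.05 the median ratio was 1.02. Replicate 1 was the higher in 98 of the 918, of which 42 were among the 93 peaks with a q-value above 0.05. The 3 X peaks whose matched signals differed most, at CG17776 and Nmd3, at Dhdds and RpS14a, and near RpS5a, were matched in replicate 1 to a summit 188 to 203 bp away, so they compare neighbouring summits. Among matches within 50 bp, chosen after the values were seen, the most different were a peak 5258 bp from Raf (79.6 in replicate 1 and 33.4 in replicate 2), one at rux (142 and 72.6) and one 268 bp from IntS4 (80.8 and 47.0).

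**Figure D5:**
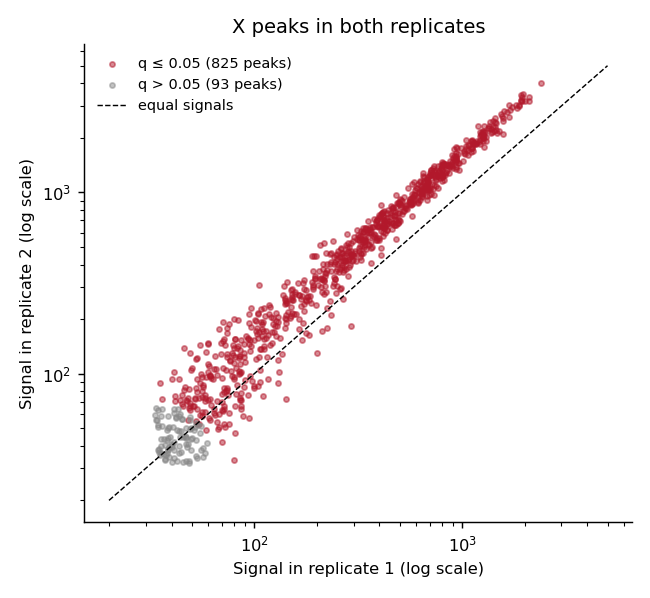
Signal of 918 X peaks in replicate 1 and replicate 2 (both log scales), for peaks with both replicate summits within 50 bp of the pooled summit. Points are coloured by the q-value in the conservative list, and the dashed line marks equal signals. Most peaks with a q-value of 0.05 or less form a narrow band above the line, and 56 of these 825 lie below the line. The median ratio over all 918 is 1.57, and peaks with q-values above 0.05 gather at the foot of the band.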

How the data were processed

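DREF-eGFP ChIP-seq peaks from 2 biological replicates were used as lists aligned to dm6, per the labels. No aligner, peak caller or scaling is given in the sources used here, and read depth is unknown. The authors deposited, for each peak, a score (lowest 830 in the conservative list), a signal value and a −log10 q-value, which stops at 3.78. The conservative and the other thresholded list are pooled over both replicates, and each replicate has thresholded and ranked lists. Neither a further pooled ranked list nor the unnamed columns of ranked lists entered any value.

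Summits were placed from the deposited start and offset. Gene starts came from Ensembl release 115 (BDGP 6.54), without transposable element insertions. The assembly lengths hold every peak. A summit was at a start within 250 bp, and a motif was counted within 100 bp on both strands. Replicate signals came from the nearest overlapping peak (1 bp or more) in that replicate's ranked list. Shares have 95% Wilson intervals and differences Newcombe intervals. With 1 group there is no test between conditions. Calculations used Python 3.11.15, numpy 2.4.6, pandas 2.3.3 and matplotlib 3.10.9, and were tested on simulated data.

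Members and the 21 gene lists were chosen with earlier results of these data known. Named were the 15 strongest peaks, the 5 strongest over 1000 bp from a start, peaks with 3 or more DREs and the 5 strongest with 2, the 3 closest pairs and 3 longest gaps, and the 3 whose replicate signals differed most. The 3 strongest peaks absent from a replicate list were also named, as were all X-linked members of the published target, dosage compensation and sex signal lists, and up to 3 bound and 3 unbound members of each other list. One of these peaks is not reported here. Cyclophilin genes caught by the P450 name pattern were left out after values were seen, and the lowest ribosomal protein signals and RpS14b were also named after they were seen.

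Alternatives were the other thresholded list, peaks with a q-value of 0.05 or less, each replicate's list, other windows, 1 summit per interval and the autosomes without arm 4.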

Additional observations from a re-analysis of the deposited data

Results flagged for a closer look

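Peaks on unplaced scaffolds assigned to the X lie outside the comparisons above. The conservative list held 59 of them on 47 scaffolds, with signals from 9.85 to 791 and a median of 109, and 30 had a q-value of 0.05 or less. They have no position on the arm, and no control samples were analysed here to set them against.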

How the results depend on the processing

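The bound share of genes (11.3 points higher on the X) was 10.2 to 11.2 points higher under all alternatives tried, and the spacing ratio (0.741) was 0.723 to 0.819. Results over whole arms moved. With peaks of a q-value of 0.05 or less, the density difference was 9.84 per Mb in place of 2.34, the gene-start difference -3.95 points in place of 13.2, the DRE difference 2.73 in place of 8.02, the signal ratio 0.892 in place of 2.45, the replicate ratio 1.01 in place of 1.09 and the both-lists difference 2.10 in place of 19.5. With each replicate's list alone, density differed by 8.20 to 9.19 per Mb, gene-start share by -0.972 to 0.727 points, DRE share by 3.70 to 3.96 points, and the signal ratio was 0.980 to 0.983. Density per 1000 protein-coding genes differed by 77.1. The DRE difference was 16.2 points with 1 mismatch allowed and 4.70 for peaks at gene starts, where the signal ratio was 1.09. The replicate ratio was 1.06 with the other thresholded list. Chosen after seeing the data, peaks at starts with a q-value of 0.05 or less gave 4.17 points for the DRE and 0.934 for signal, and summits within 50 bp gave a replicate ratio of 1.06. The causes of these shifts were not tested. No paired analysis was possible because the study has a single group. With 2 replicates, no control and unknown depth, the lists show neither how far signals vary between embryos nor which weak peaks were missed.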
